A study of Mus musculus with 6 samples.

Results

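The mitosis and cytokinesis genes are a set of 39 named genes whose products drive a cell from entry into mitosis to its division. They were chosen by name, and all 39 were found among the 34245 genes of the RNA-seq table, each once. RNA-seq had been performed on 3 peripheral T-cell lymphomas (PTCL) taken from lymph nodes of terminally ill FVB/N mice that were heterozygous for Dnmt3b. These mice carry a conventional knockout allele, present in every cell, and keep a wild-type allele. The ages of the animals are not given in the sources used here. The tumors form a single group of separate animals, named tumor 1, tumor 2 and tumor 3. No other genotype has expression values here, so groups cannot be tested against each other and what follows describes 3 tumors. Whole-genome bisulfite sequencing of Dnmt3b+/- and Dnmt3a-/- PTCL was not analysed here.

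Expression is given as FPKM, in which fragments are divided by the length of a gene's exons and by library depth, so that levels can be compared between genes. The libraries had a depth of 30726570 (tumor 1), 18969988 (tumor 2) and 20770928 reads (tumor 3). Dnmt3b (ENSMUSG00000027478) itself had 0.975 (tumor 1), 1.55 (tumor 2) and 1.25 FPKM (tumor 3), values that cover all its exons and do not separate the targeted from the wild-type allele. T-cell genes were high in every tumor, with a median over 13 markers of 110, 106 and 161 FPKM. Cd8b1, a chain of the CD8 co-receptor and the most abundant of them by mean, had 435, 166 and 443 FPKM in tumors 1, 2 and 3, and Cd4 had 28.4, 4.28 and 8.22 FPKM. In bulk tumors such as these, fewer cells of a type and less RNA per cell cannot be told apart.

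During mitosis the cyclin-dependent kinase Cdk1 with its B-type cyclins starts the condensation of the chromosomes and the building of the spindle, kinetochores tie chromosomes to spindle microtubules, and the destruction of cyclins and of securin lets sister chromatids part before a contractile ring cuts the cell. Most of these genes are transcribed late in the cell cycle, through promoters that carry CHR elements and CCAAT boxes, which MuvB complexes and NF-Y bind. Their RNA is therefore commonly read as a sign of cells in cycle, in lymphomas as in other tissues, while a resting T cell holds little of it.

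Every member was expressed in every tumor. All 39 lay above 0.2 FPKM, a low level used here as the threshold of expression, in each of the 3 tumors, against 36.7% of all genes in the table, and 37 lay above 1 FPKM in each, against 28.4%. The members' median was 7.81 (tumor 1), 5.05 (tumor 2) and 2.49 FPKM (tumor 3). In rank among all genes of the table, the median member stood at percentile 86.6, 82.9 and 76.5 in these tumors. Summed over the list, the members held 0.225% of the FPKM of tumor 1, 0.127% of tumor 2 and 0.0682% of tumor 3. The levels therefore differed between tumors of the same genotype, with tumor 1 high, tumor 3 low and tumor 2 between them.

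The order was shared by nearly the whole list. Tumor 1 held the highest value of 36 members and tumor 2 that of the other 3, Incenp, Kif4 and Espl1. Among the 15859 genes above 0.2 FPKM in at least 1 tumor, the highest value was that of tumor 1 in 49.5%, of tumor 2 in 35.8% and of tumor 3 in 14.7%. Tumor 3 held the lowest value of all 39 members and of 40.7% of these genes. The order of tumor 1 over tumor 2 over tumor 3 held in 36 members and in 22.1% of the 15859 genes. With FPKM rescaled to the same sum all 39 members and 30.8% of the genes had this order. With median-of-ratios size factors 32 members and 16.1% of the genes had it, since Plk1, Incenp, Kif4, Espl1 and Racgap1 were then lower in tumor 1 than in tumor 2, and Spc25 and Kif23 lower in tumor 2 than in tumor 3.

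**Figure D1:**
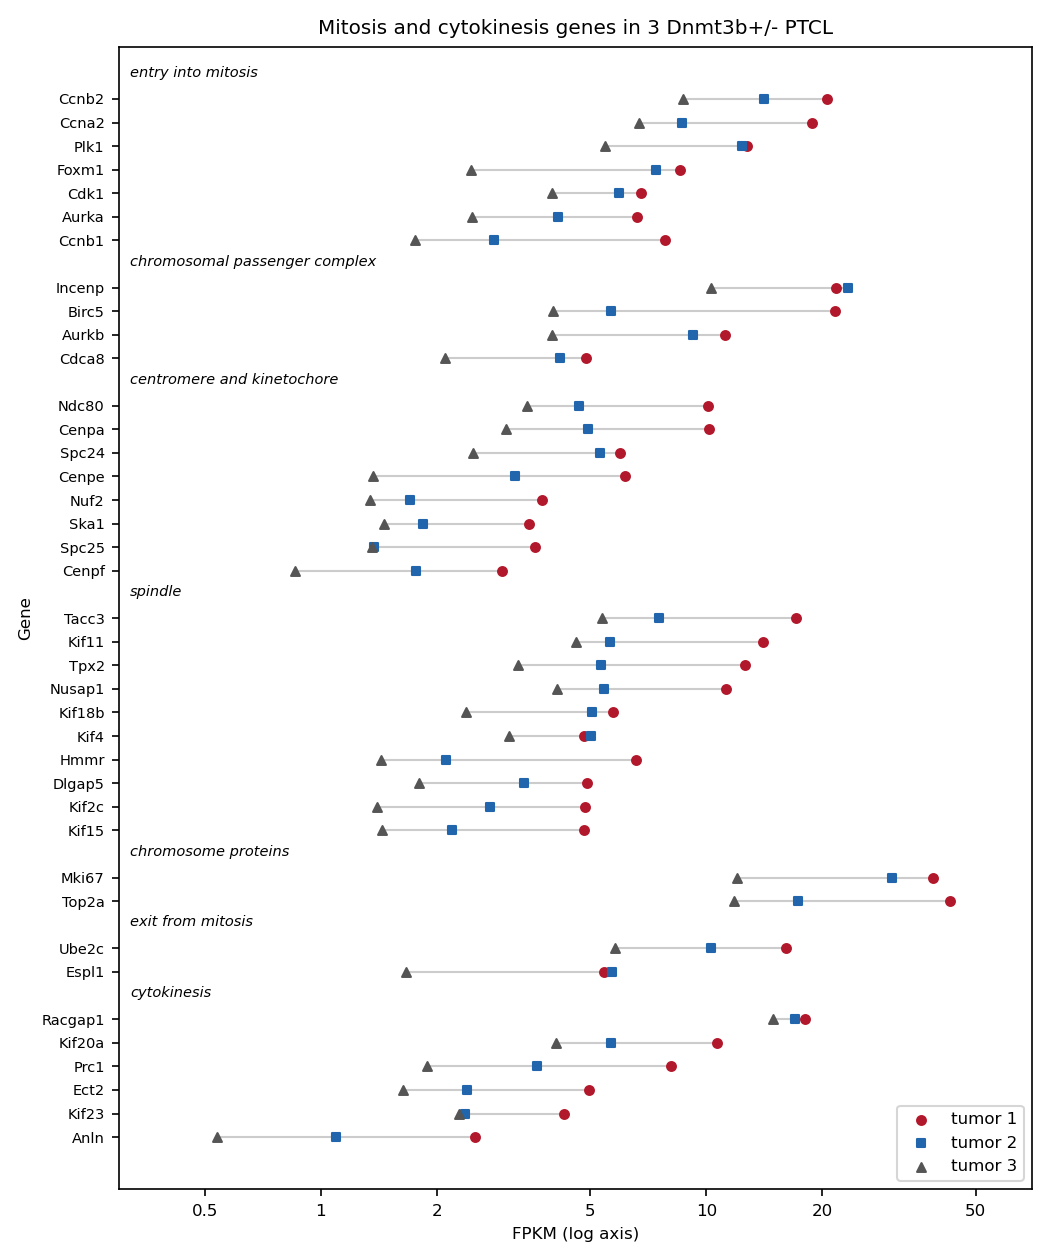
FPKM of each member (log axis) in tumor 1 (circle), tumor 2 (square) and tumor 3 (triangle), grouped by role, with a grey line from the lowest to the highest tumor. The circle lies furthest to the right in 36 of 39 genes and the triangle furthest to the left in all 39, and the line of Racgap1 is the shortest.

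Among the 7 genes that bring a cell into mitosis, the cyclins Ccnb2 and Ccna2 stood highest by mean. Ccnb2, a B-type cyclin, had 20.6 (tumor 1), 14.2 (tumor 2) and 8.68 FPKM (tumor 3). Ccna2, the cyclin of S phase and early mitosis, had 18.8 (tumor 1), 8.65 (tumor 2) and 6.69 FPKM (tumor 3). Ccnb1, the other B-type cyclin, had 7.81 (tumor 1), 2.81 (tumor 2) and 1.76 FPKM (tumor 3), so that its tumors were far more apart than those of Ccnb2, with a ratio of tumor 1 to tumor 3 of 4.44 (95% counting interval 3.75 to 5.30) against 2.37 (95% counting interval 2.07 to 2.72). Such intervals cover counting error only and compare these libraries, not conditions. Cdk1, the kinase that both cyclins activate, varied much less, with 6.75 (tumor 1), 5.93 (tumor 2) and 3.97 FPKM (tumor 3), from 1024, 555 and 407 reads. Foxm1, a transcription factor of late cell cycle genes, was nearly level between tumors 1 and 2 and low in tumor 3, with 8.55, 7.42 and 2.45 FPKM in turn. The same pattern was seen in the kinase Plk1, at 12.7, 12.3 and 5.47 FPKM. In the spindle pole kinase Aurka, at 6.60, 4.12 and 2.47 FPKM, the tumors were spaced more evenly. All 7 were highest in tumor 1, except Plk1 with size factors, and lowest in tumor 3.

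The chromosomal passenger complex, which corrects attachments at the centromere and later acts at the midzone, had 4 members in the list, and they differed in how the tumors were spaced. Birc5 (ENSMUSG00000017716, chromosome 11 of mm10 from 117849251 to 117855743), the survivin subunit, had 21.5 (tumor 1), 5.67 (tumor 2) and 4.005 FPKM (tumor 3), from 2251, 366 and 283 reads. Its coefficient of variation (CV, the SD over the mean of the 3 tumors) of 93.0% and its ratio of tumor 1 to tumor 3 of 5.38 (95% counting interval 4.75 to 6.11) were the highest in the list. Incenp, the scaffold, had 21.7 (tumor 1), 23.4 (tumor 2) and 10.3 FPKM (tumor 3). The kinase Aurkb had 11.2 (tumor 1), 9.25 (tumor 2) and 3.99 FPKM (tumor 3). Cdca8, the borealin subunit, had 4.88, 4.17 and 2.10 FPKM. Tumor 1 thus exceeded tumor 2 by 3.80 times in Birc5, by 1.21 times in Aurkb and by 1.17 times in Cdca8, while Incenp was 0.928 times its level in tumor 2. Reads could not be recovered as whole numbers for Incenp, so it has no counting interval.

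In each of the 8 centromere and kinetochore genes tumor 1 was highest and tumor 3 lowest, except that Spc25 was lowest in tumor 2 with size factors. Ndc80, the microtubule-binding subunit of the complex of that name, had 10.1 (tumor 1), 4.67 (tumor 2) and 3.43 FPKM (tumor 3). Cenpa, the histone H3 variant of centromeres, had 10.2 (tumor 1), 4.93 (tumor 2) and 3.03 FPKM (tumor 3). The motor Cenpe had 6.17, 3.19 and 1.37 FPKM. Cenpf, a large protein of the outer kinetochore, was the lowest of the group by mean, with 2.95, 1.77 and 0.858 FPKM. The other subunits of the Ndc80 complex differed in how tumor 2 was placed. Nuf2, the partner of Ndc80, had 3.75, 1.70 and 1.34 FPKM, with tumor 2 near tumor 3. Spc24, which joins the complex to the inner kinetochore, had 5.96, 5.29 and 2.49 FPKM, with tumor 2 near tumor 1. Spc25, the partner of Spc24, had 3.59, 1.37 and 1.36 FPKM. Ska1, of a complex that helps kinetochores follow microtubule ends, had 3.46, 1.84 and 1.46 FPKM. For Spc25 the values of tumors 2 and 3 rest on 83 and 90 reads, and their ratio of 1.01 (95% counting interval 0.740 to 1.38) shows no difference detectable at this depth. The same holds for Ska1, with a ratio of tumor 2 to tumor 3 of 1.26 (95% counting interval 0.923 to 1.71).

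Spindle genes made up the largest group, 10 members, and 9 of them were highest in tumor 1. Tacc3, which stabilises kinetochore fibres, led them with 17.1 (tumor 1), 7.54 (tumor 2) and 5.37 FPKM (tumor 3). The bipolar motor Kif11 had 14.03 (tumor 1), 5.63 (tumor 2) and 4.59 FPKM (tumor 3). The motor Kif15, which can act in its place, had 4.83, 2.19 and 1.44 FPKM. Hmmr, a microtubule-associated protein of spindle poles, was the member with the third highest ratio of tumor 1 to tumor 3, 4.58 (95% counting interval 3.88 to 5.43), at 6.57 (tumor 1), 2.11 (tumor 2) and 1.44 FPKM (tumor 3). Tpx2, the activator of Aurka, had 12.6, 5.33 and 3.25 FPKM. Nusap1, which bundles spindle microtubules, had 11.3, 5.42 and 4.09 FPKM. Dlgap5, which stabilises them near chromosomes, had 4.91, 3.36 and 1.80 FPKM. The microtubule depolymerase Kif2c had 4.83, 2.74 and 1.40 FPKM, again in the common order. Kif18b, a motor that acts on microtubule ends, had 5.72, 5.05 and 2.39 FPKM and was nearly level between tumors 1 and 2. Kif4, a chromosome-bound motor, was the exception, with 4.80 (tumor 1), 5.01 (tumor 2) and 3.08 FPKM (tumor 3). Its ratio of tumor 1 to tumor 2 was 0.959 (95% counting interval 0.858 to 1.07), while with size factors it was 0.851 (0.762 to 0.952), so that the interval holds 1 in FPKM as deposited and not with size factors. Its CV of 24.6% was the second lowest in the list.

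The chromosome proteins Mki67 and Top2a were the most abundant members by mean, although Incenp exceeded Top2a in tumor 2 and Racgap1 exceeded both in tumor 3. Mki67 (ENSMUSG00000031004, chromosome 7 of mm10 from 135689784 to 135716361), the proliferation marker that coats mitotic chromosomes, had 38.7 (tumor 1), 30.4 (tumor 2) and 12.04 FPKM (tumor 3), with a mean of 27.0 ± 13.6 FPKM (SD, n = 3). Top2a (ENSMUSG00000020914, chromosome 11 of mm10 from 98992943 to 99024189), the topoisomerase that disentangles sister chromatids, had 42.8 (tumor 1), 17.3 (tumor 2) and 11.8 FPKM (tumor 3), with a mean of 23.9 ± 16.5 FPKM (SD, n = 3). Mki67 rests on 11950, 5798 and 2516 reads in tumors 1, 2 and 3. Top2a rests on 11843, 2953 and 2205 reads, and both have more in tumor 1 than any other member with recovered reads. The ratio of tumor 1 to tumor 3 was 3.21 (95% counting interval 3.08 to 3.35) in Mki67 and 3.63 (95% counting interval 3.47 to 3.80) in Top2a. Tumor 2 lay near tumor 1 for Mki67 and near tumor 3 for Top2a, with ratios of tumor 1 to tumor 2 of 1.27 (95% counting interval 1.23 to 1.31) and 2.48 (95% counting interval 2.38 to 2.58).

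Of the genes of mitotic exit, Ube2c, the ubiquitin-conjugating enzyme of the anaphase-promoting complex, had 16.1 (tumor 1), 10.3 (tumor 2) and 5.81 FPKM (tumor 3). Espl1, the separase that cleaves cohesin, had 5.43 (tumor 1), 5.69 (tumor 2) and 1.66 FPKM (tumor 3), with tumors 1 and 2 close together and tumor 2 at 3.42 times tumor 3. In cytokinesis, Racgap1 (ENSMUSG00000023015, chromosome 15 of mm10 from 99620496 to 99651656), the GTPase-activating subunit of centralspindlin, was the most even member of the whole list, with 18.1 (tumor 1), 17.0 (tumor 2) and 14.9 FPKM (tumor 3). Its CV was 9.60%, and its ratio of tumor 1 to tumor 3, 1.21 (95% counting interval 1.15 to 1.28), was the lowest of the 39. Kif23, the motor subunit of the same complex, had 4.28, 2.37 and 2.28 FPKM. Kif20a, a motor of the midzone, had 10.6, 5.65 and 4.08 FPKM. The midzone bundler Prc1 had 8.10, 3.65 and 1.89 FPKM. Ect2, the exchange factor that activates RhoA at the division plane, had 4.95, 2.40 and 1.64 FPKM. Anln, which crosslinks the contractile ring, was the lowest member by mean, 1.38 ± 1.02 FPKM (SD, n = 3). It had 2.51 (tumor 1), 1.09 (tumor 2) and 0.537 FPKM (tumor 3), from 700, 188 and 101 reads, and the second highest ratio of tumor 1 to tumor 3, 4.69 (95% counting interval 3.80 to 5.83). All 6 cytokinesis genes were highest in tumor 1 and lowest in tumor 3, except that with size factors Racgap1 was highest and Kif23 lowest in tumor 2.

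In size, the members' differences stood out most between tumors 1 and 3. The median log2 ratio, on the scale of log2 of FPKM + 0.1, was 1.47 for tumor 1 over tumor 3, against 0.29 over the 15859 genes. For tumor 1 over tumor 2 it was 0.88 against 0.17, and for tumor 2 over tumor 3 it was 0.68 against 0.10. Relative to the median of those genes the members were thus shifted by 1.18, 0.71 and 0.59. Rescaling FPKM to the same sum moved the median of all genes to 0.55, 0.31 and 0.22, and size factors moved it to 0.07, 0.01 and 0.05. A scaling moves all genes alike, so the shift of the members from that median hardly depends on it by construction.

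Counted by a fold of 2 on the same scale, 35 of 39 members were higher in tumor 1 than in tumor 3, against 18.8% of the 15859 genes. The exceptions were Racgap1, Kif4, Cdk1 and Kif23. Between tumors 1 and 2 the count was 17 members, against 18.4%, and with size factors it was 8, against 14.5%. Centred on genes of like GC content, an alternative chosen after seeing the data, it was 2, against 11.6%, a lower share than that of all genes. Between tumors 2 and 3 it was 9 members, against 16.1%, and with FPKM rescaled to the same sum 15, against 19.9%. In the other direction no member was 2-fold higher in tumor 2 than in tumor 1, in tumor 3 than in tumor 1 or in tumor 3 than in tumor 2, where 11.7%, 4.36% and 6.12% of the genes were. Of the 33 members with recovered reads, all had a counting interval above 1 for tumor 1 over tumor 3, 29 had it for tumor 1 over tumor 2 and 30 for tumor 2 over tumor 3. Of all genes above 0.2 FPKM with recovered reads, 51.4% had such an interval for tumor 1 over tumor 3, 45.5% for tumor 1 over tumor 2 and 37.1% for tumor 2 over tumor 3. Whether an interval lies above 1 also depends on the number of reads, and these genes were not matched to the members for level. With size factors, an alternative chosen after seeing the data for the intervals, the counts were 32 for tumor 1 over tumor 3, 24 for tumor 1 over tumor 2 and 29 for tumor 2 over tumor 3, against 37.5%, 38.0% and 34.0%. In FPKM as deposited, intervals that held 1 were those of Plk1, Spc24, Kif18b and Kif4 between tumors 1 and 2, and those of Spc25, Ska1 and Kif23 between tumors 2 and 3. With size factors Cdca8, Foxm1, Cdk1 and Aurkb also held 1 between tumors 1 and 2, where Kif4 and Racgap1 were below it, Racgap1 held 1 between tumors 1 and 3, and Nuf2 between tumors 2 and 3.

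**Figure D2:**
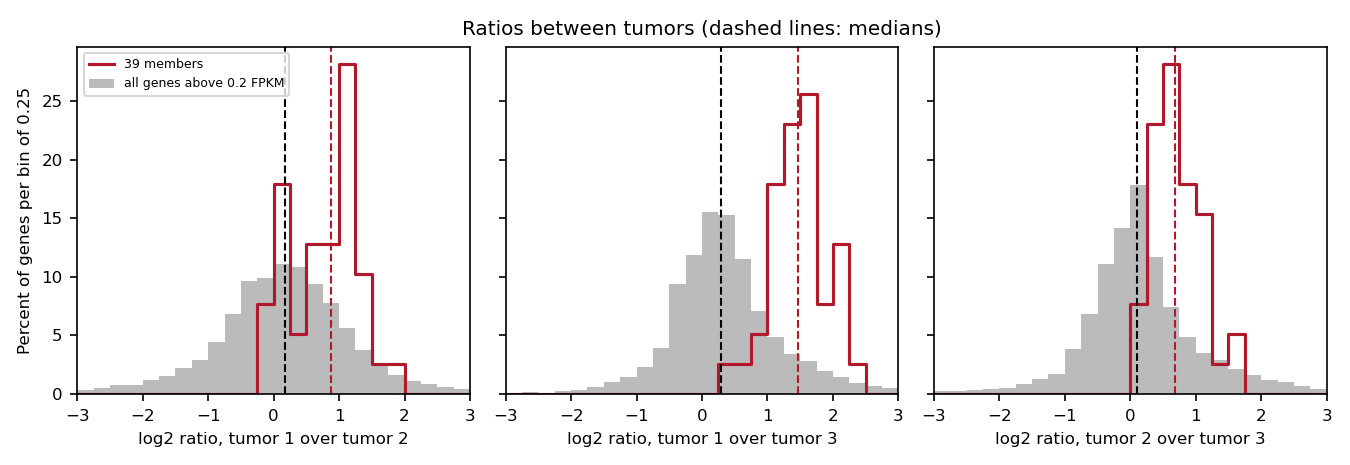
Percent of genes per bin of 0.25 in the log2 ratio of FPKM + 0.1 between each pair of tumors, for the 15859 genes above 0.2 FPKM in at least 1 tumor (grey) and the 39 members (red line), with their medians as dashed lines. The members lie furthest from the other genes for tumor 1 over tumor 3, with medians of 1.47 and 0.29.

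The spread over tumors was wider for the members than for most genes. Their median CV was 55.2%, against 32.9% over the 15859 genes, and ranged from 9.60% in Racgap1 to 93.0% in Birc5. Hmmr and Ccnb1 followed Birc5, with CVs of 82.8% and 78.3%, and Cdk1, with 25.7%, was the third lowest after Racgap1 and Kif4. The median CV fell most without tumor 1, to 33.7%, against 43.2% without tumor 3 and 67.1% without tumor 2, each over 2 tumors. Without tumor 1 the mean of 13 members moved by over 1.5 times, and without tumor 2 or tumor 3 that of 0 members. Leaving out a value that is not the highest cannot move a mean that far. Tumor 3 was highest in 0 members and tumor 2 in 3, so their counts were largely set in advance. Values over all genes were not computed for these. Tumor 1 also had the deepest library and tumor 2 the shallowest, and the part of depth in the differences was not tested.

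Pairs of members with related roles did not always keep one proportion. They were picked for this after values had been seen, and the ratios are of FPKM, per kilobase, within a tumor. Ndc80 over Nuf2, which form a dimer, was 2.69 (tumor 1), 2.74 (tumor 2) and 2.56 (tumor 3), nearly constant. Spc24 over Spc25, the other dimer of that complex, was 1.66 (tumor 1), 3.85 (tumor 2) and 1.83 (tumor 3), so that tumor 2 had relatively more Spc24. Ccnb2 over Ccnb1 was 2.64 (tumor 1), 5.03 (tumor 2) and 4.94 (tumor 3). Tumor 1 had the lowest proportion for this pair and also for Racgap1 over Kif23, the centralspindlin partners, at 4.23 (tumor 1), 7.18 (tumor 2) and 6.55 (tumor 3). Incenp over Cdca8 was 4.45 (tumor 1), 5.60 (tumor 2) and 4.89 (tumor 3), and Aurkb over Aurka was 1.69 (tumor 1), 2.24 (tumor 2) and 1.61 (tumor 3), each highest in tumor 2. Top2a over Mki67 was 1.11 (tumor 1), 0.569 (tumor 2) and 0.978 (tumor 3), with tumor 2 standing apart from the other tumors. The GC content of the exons was 52.0% in Spc24 and 44.5% in Spc25, and 49.3% in Ccnb2 and 42.9% in Ccnb1. It was 46.6% in Mki67 and 41.8% in Top2a, 43.1% in Ndc80 and 42.1% in Nuf2, and 51.8% in Aurkb and 51.7% in Aurka. The part of GC content in these proportions was not tested.

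The differences between tumors 1 and 2 also varied with the base composition of the members. The GC content of the members' exons ran from 39.6% in Ect2 to 56.0% in Plk1. Over the members, GC content and the log2 ratio of tumor 1 to tumor 2 had a Pearson correlation of -0.67 (n = 39 genes, which share their libraries and are not independent replicates). Over all background genes with a value the correlation was -0.33 (n = 15819 genes), and its difference from that of the members was not tested. In 20 equal bins of GC content of these background genes, the median log2 ratio of tumor 1 to tumor 2 went from 0.91 in the bin of lowest GC (median 37.9%) to -0.53 in the highest (median 60.7%). For tumor 1 over tumor 3 these values were 0.53 and 0.15, and for tumor 2 over tumor 3 -0.29 and 0.64. Each tumor is 1 library, so differences of libraries and of tumors cannot be told apart.

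**Figure D3:**
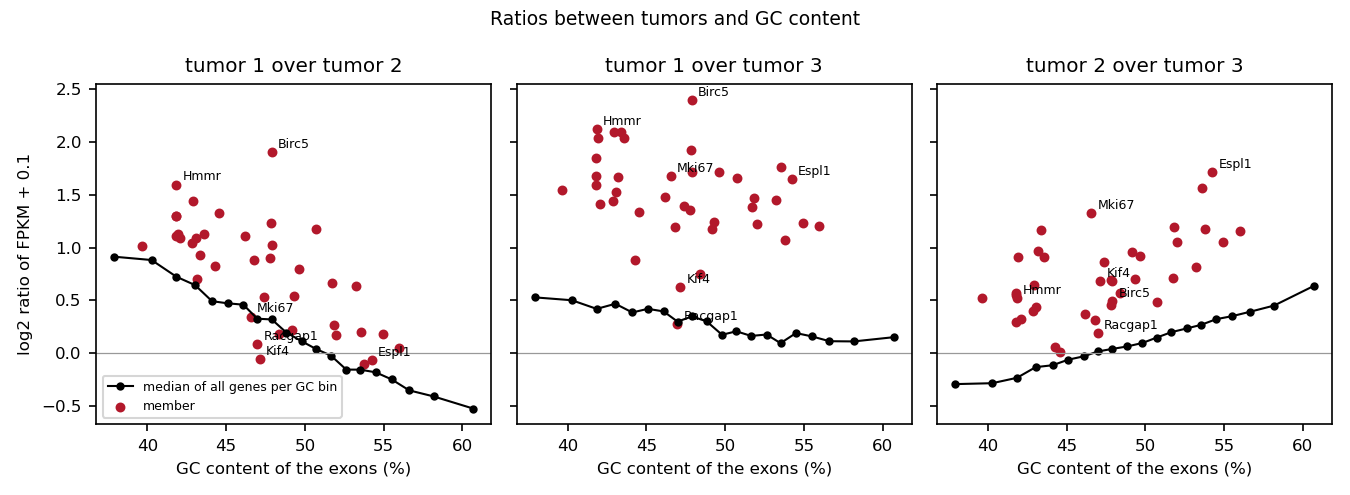
log2 ratio of FPKM + 0.1 between each pair of tumors against the GC content of the exons in percent, for the 39 members (red points, with 6 of them named) and as the median of all genes above 0.2 FPKM per GC bin (black line). The black line falls with GC content for tumor 1 over tumor 2 and climbs for tumor 2 over tumor 3, and most red points lie above it in every panel.

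The centring on GC content, chosen after seeing the data, set each ratio against the median of genes of like GC content. The members' median log2 ratio was then 0.40 for tumor 1 over tumor 2, 1.17 for tumor 1 over tumor 3 and 0.73 for tumor 2 over tumor 3. Centred values lay above 0 in 36, 38 and 39 members, against 49.9%, 49.9% and 49.9% of all genes, shares that the centring itself sets. Cdk1, Kif4 and Racgap1 were below 0 for tumor 1 over tumor 2, with -0.01, -0.39 and -0.24, and Racgap1 also for tumor 1 over tumor 3, with -0.02. Incenp and Espl1 moved to 0.05 and 0.11 for tumor 1 over tumor 2. The count of members at least 2-fold higher in tumor 1 than in tumor 2 fell to 2, Birc5 with 1.59 and Tacc3 with 1.13, against 11.6% of all genes centred in the same way. For tumor 1 over tumor 3 it was 29 against 13.4%, and for tumor 2 over tumor 3 it was 7 against 13.5%.

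Most other genes of mitosis were ordered alike. Among 42 such genes outside the list, 37 were highest in tumor 1 (37 with size factors) and 34 had the order of tumor 1 over tumor 2 over tumor 3 (34 with size factors). Their median log2 ratios were 0.74, 1.42 and 0.58 for tumor 1 over 2, tumor 1 over 3 and tumor 2 over 3. Cks2 and Cks1b, small subunits that bind Cdk1, were the most abundant by mean. Cks2 had 41.3, 33.9 and 22.1 FPKM in tumors 1, 2 and 3, and Cks1b had 26.0, 15.8 and 9.49 FPKM. By CV, the most even were Cenpi, of the inner kinetochore, at 2.58, 2.73 and 2.27 FPKM, and Gtse1, at 5.88, 5.08 and 3.41 FPKM. The least even were Sgo1, the protector of centromeric cohesin, at 7.69, 2.38 and 1.29 FPKM, and Depdc1a, at 5.47, 1.48 and 1.30 FPKM. All 12 genes of the spindle checkpoint were highest in tumor 1 (11 with size factors), with median log2 ratios of 0.70, 1.32 and 0.49. The order of tumor 1 over tumor 2 over tumor 3 held in 8 of these 12 genes (7 with size factors). Cdc20, the activator of the anaphase-promoting complex that the checkpoint restrains, had 15.2, 13.6 and 7.55 FPKM, and Bub3 had 9.09, 7.33 and 7.72 FPKM. Of 8 condensin genes 7 were highest in tumor 1 (7 with size factors), with median log2 ratios of 1.06, 1.13 and 0.33. The full order held in 5 of the 8 condensin genes (5 with size factors). Smc4 had 59.7, 28.7 and 26.7 FPKM, and Ncaph2, a subunit of condensin II, had 25.9, 36.9 and 21.3 FPKM and was highest in tumor 2. Centring on GC content left the 42 other mitosis genes at median log2 ratios of 0.35, 1.04 and 0.57. It left the checkpoint genes at 0.34, 0.88 and 0.48 and the condensin genes at 0.39, 0.68 and 0.39.

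Genes of DNA replication differed less between the tumors. Their median log2 ratios over 28 genes were 0.45, 0.56 and 0.29, 13 had the order of tumor 1 over tumor 2 over tumor 3 (7 with size factors), and their median CV was 25.7%. Pcna, the sliding clamp, had 88.0, 55.9 and 63.6 FPKM, and Mcm4, a subunit of the replicative helicase, had 42.7, 29.6 and 33.7 FPKM. The members' median FPKM was 0.596 times that of the replication genes in tumor 1, 0.498 times in tumor 2 and 0.302 times in tumor 3. Centring on GC content left the replication genes at 0.19, 0.30 and 0.08. Among 12 genes of the MuvB and DREAM complexes and E2F factors, with median log2 ratios of 0.57, 0.70 and 0.09, E2f4 had 27.2, 35.2 and 28.3 FPKM and Tfdp1, its partner, 30.8, 22.8 and 16.0 FPKM. The 10 reference genes of housekeeping use had median log2 ratios of -0.02, -0.10 and -0.22, and their most abundant by mean, B2m and Rplp0, had 2327, 1573 and 1781 FPKM and 1063, 1919 and 2667 FPKM.

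**Figure D4:**
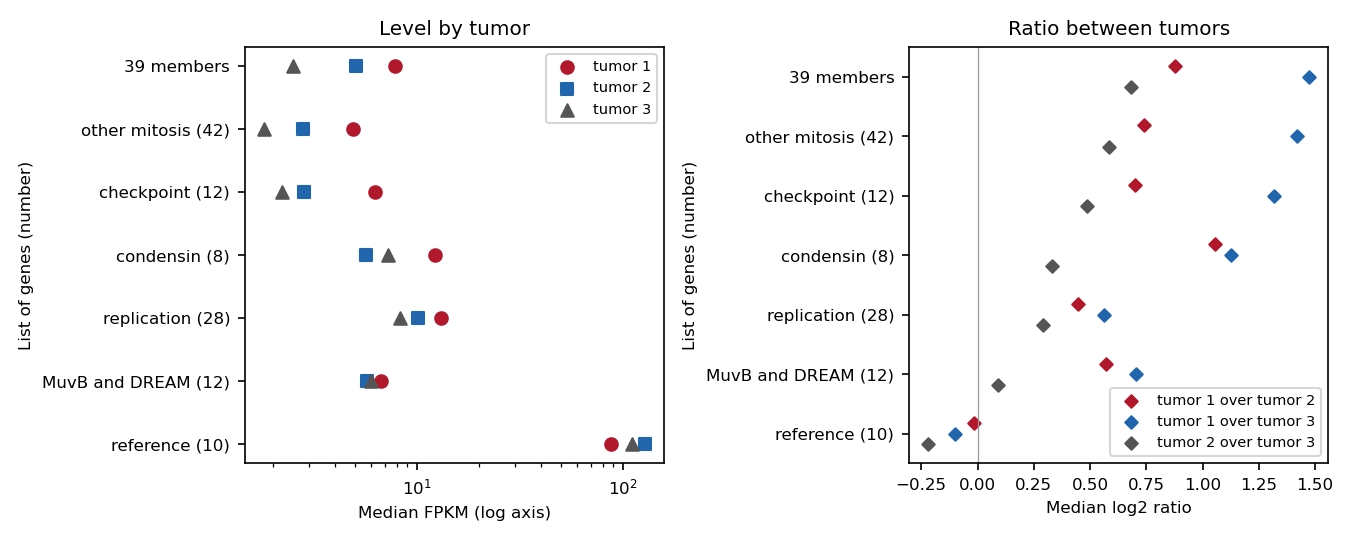
Median FPKM per tumor (left, log axis) and median log2 ratio of FPKM + 0.1 for each pair of tumors (right), for the 39 members and 6 other lists, with the number of genes of each list in brackets. The members, the other mitosis genes and the checkpoint genes have the widest gaps between tumors 1 and 3, and the reference genes lie near 0.

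Markers of other cell types also differed between the tumors, and their part in the result was not tested. The gene named as leading a list is its highest by mean. Of 8 macrophage and monocyte genes 6 had the order of tumor 1 over tumor 2 over tumor 3, and their sum was 405, 135 and 36.5 FPKM in tumors 1, 2 and 3, led by Lyz2 with 215, 33.1 and 20.3 FPKM. Of 6 erythroid genes 5 had that order, with a sum of 139, 32.2 and 3.78 FPKM, led by Hba-a1 with 92.3, 19.6 and 1.90 FPKM. In the same list Gata1 had 8.62, 4.97 and 0.296 FPKM and Alas2 had 2.90, 0.526 and 0.280 FPKM, both in that order. Klf1, a factor of erythroid precursors, was the exception, with at most 3 reads in each tumor. Neutrophil precursor genes summed to 2.08, 0.322 and 1.5 FPKM, with Ngp the most abundant, and Ctsg, Elane and Mpo had at most 3 reads in each tumor. The 7 B-cell genes, led by Cd79a, summed to 63.8, 50.9 and 121 FPKM, and 6 were highest in tumor 3, where the members were lowest. Cd22, the exception, had 5.84, 36.5 and 13.9 FPKM and made up most of the sum of tumor 2, in which the other 6 genes were lowest. The 4 germinal centre B-cell genes, led by S1pr2, summed to 2.48, 3.94 and 2.37 FPKM. The 4 plasma cell genes summed to 827, 188 and 207 FPKM, nearly all from Jchain with 814, 185 and 179 FPKM, while the other 3, Mzb1, Tnfrsf17 and Sdc1, were highest in tumor 3. Fibroblast genes summed to 11.4, 41.7 and 0.362 FPKM, led by Col1a1, and endothelial genes to 13.8, 13.4 and 5.14 FPKM, led by Pecam1. The 8 pancreatic acinar genes summed to 87.0, 440 and 0.657 FPKM, led by Ctrb1, and all 8 were highest in tumor 2. The 13 T-cell genes, led by Cd8b1, summed to 1780, 1596 and 1916 FPKM, and 0 of them had the members' order.

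For 9 members, exons overlap those of a gene on the opposite strand, and since strand is not stated for the libraries, reads of such a pair cannot be told apart. Kif20a shares 29.3% of its exon bases with Cdc23, Ube2c 22.8% with Tnnc2, Kif4 15.1% with Pdzd11, Ccna2 12.5% with Exosc9 and Prc1 11.1% with Rccd1. Plk1, Cdca8, Nusap1 and Tacc3 share under 10%. Cdc23 had 5.29, 3.05 and 3.45 FPKM in tumors 1, 2 and 3. Exosc9 had 7.56, 3.47 and 5.37 FPKM, and Rccd1 3.37, 2.40 and 2.26 FPKM. These genes were highest in tumor 1, as were the members they overlap. Tnnc2 was near 0, at 0.0366, 0.132 and 0.0542 FPKM. Pdzd11 had 5.25, 9.32 and 8.31 FPKM in tumors 1, 2 and 3, highest in tumor 2 as Kif4 was, and the part of these genes in the members' values was not tested.

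The promoters of the members were examined for motifs, of which CHR and CCAAT are known from late cell cycle genes such as these. Counts of CHR and CCAAT in the members are therefore not an independent finding. RefSeq promoters of GRCm38.p6, from 250 bases before to 50 bases after the start site, were at hand for 30 members. They were searched on both strands for the CHR element, as TTTGAA or TTTAAA, for the CCAAT box, as CCAAT, and for an E2F site, as TTTCGCGC or TTTGGCGC. A CHR match was present in 27 of 30 members, against 30.6% of 27025 genes with promoters of the same length, and was missing in Nuf2, Nusap1 and Tacc3. A CCAAT box was present in 22, against 41.1%, and both together in 22, against 12.2%. An E2F site was found in Cdk1 and Kif15 only, and in 0.929% of all genes. Of the 22 replication genes with a promoter at hand, 4 held both CHR and CCAAT and 9 an E2F site, and of 34 other mitosis genes 14 held both CHR and CCAAT. Ccna2, Incenp, Tpx2, Aurkb, Spc24, Foxm1, Ska1, Dlgap5 and Kif20a have no entry in the table.

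Many CHR matches lay at or just past the start site. In the last 150 bases before it, 13 of 30 members had a CHR match, against 16.8% of genes, while 16 had 1 in the 50 bases from the start site on, against 3.95%. CCAAT boxes lay upstream, with 22 of 30 members in the last 150 bases, against 27.7%. A spacing noticed in the members was then counted in all promoters, so that its count in the members describes the genes it was taken from. A CHR match whose centre lay 20 to 40 bases nearer the gene than that of a CCAAT box was found in 15 of 30 members, against 1.61% of genes, in 6 of 34 other mitosis genes, in 3 of 11 checkpoint genes and in 1 of 22 replication genes. These matches are a description of letters in a window. The stretches printed next show such pairs in members with wide (Ccnb1, Top2a, Kif11), middle (Ube2c) and narrow (Cdk1) spread over the tumors, and in Espl1, which was highest in tumor 2 and has its pair closer together (these examples were picked after values had been seen). Each gives the 120 bases that end just before the start site, with matches to CHR and CCAAT, or to their reverse complements (TTCAAA for TTTGAA and ATTGG for CCAAT), in capitals.
Ccnb1, chr13:100786487-100786606, minus strand: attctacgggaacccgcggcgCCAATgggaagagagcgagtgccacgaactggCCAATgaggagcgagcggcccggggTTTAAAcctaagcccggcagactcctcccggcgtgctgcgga
Top2a, chr11:99024190-99024309, minus strand: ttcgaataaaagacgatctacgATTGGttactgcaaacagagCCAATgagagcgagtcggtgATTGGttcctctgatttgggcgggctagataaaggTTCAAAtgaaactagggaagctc
Kif11, chr19:37376262-37376381, plus strand: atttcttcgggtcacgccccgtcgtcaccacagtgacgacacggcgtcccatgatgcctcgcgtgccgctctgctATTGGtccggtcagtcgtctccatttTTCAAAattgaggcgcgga
Ube2c, chr2:164769809-164769928, plus strand: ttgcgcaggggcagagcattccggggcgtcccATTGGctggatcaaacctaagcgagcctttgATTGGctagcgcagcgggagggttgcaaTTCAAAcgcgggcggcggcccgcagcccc
Cdk1, chr10:69352913-69353032, minus strand: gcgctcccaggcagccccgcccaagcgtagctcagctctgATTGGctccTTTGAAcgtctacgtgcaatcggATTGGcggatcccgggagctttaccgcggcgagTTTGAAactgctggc
Espl1, chr15:102296173-102296292, plus strand: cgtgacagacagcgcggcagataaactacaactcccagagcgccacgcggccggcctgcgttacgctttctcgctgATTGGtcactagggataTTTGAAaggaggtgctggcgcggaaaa

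In Ccnb1 the CHR centre lies 25.5 bases from that of the nearest CCAAT box, in Kif11 26.5, in Ube2c 28.5 and in Espl1 17.5. In Cdk1 and Top2a the closest matches are 9.5 and 10.5 bases apart, that of Top2a upstream of the stretch shown, and other matches of each are 20 to 40 bases apart. In other members a CHR match falls past the start site, as in Ccnb2, which has another further upstream, in Hmmr, in Kif4, which was highest in tumor 2, and in Racgap1, the most even member. Sites of 30 bases around these matches past the start site follow, with the CHR match in capitals.
Ccnb2, chr9:70421533-70421562, minus strand: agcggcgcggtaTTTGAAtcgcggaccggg
Hmmr, chr11:40733412-40733441, minus strand: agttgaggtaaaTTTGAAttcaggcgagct
Kif4, chrX:100626072-100626101, plus strand: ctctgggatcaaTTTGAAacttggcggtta
Racgap1, chr15:99651634-99651663, minus strand: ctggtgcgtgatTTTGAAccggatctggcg

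Members with both of these motifs and members that lack 1 or both each spanned a range of differences between the tumors. The 22 members with both had a median log2 ratio of tumor 1 to tumor 3 of 1.497 and a CV from 9.60% to 82.8%. The 8 members with a promoter at hand but not both motifs, Birc5, Ndc80, Nuf2, Kif15, Kif2c, Nusap1, Tacc3 and Anln, had a median of 1.67 and a CV from 55.2% to 93.0%. For tumor 1 over tumor 2 the medians were 0.69 in the 22 members and 1.10 in the 8. For tumor 2 over tumor 3 they were 0.69 in the 22 and 0.49 in the 8. These medians are not centred on GC content, with which the ratios also varied. The part of GC content in the gaps between the 22 and the 8 was not tested.

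**Figure D5:**
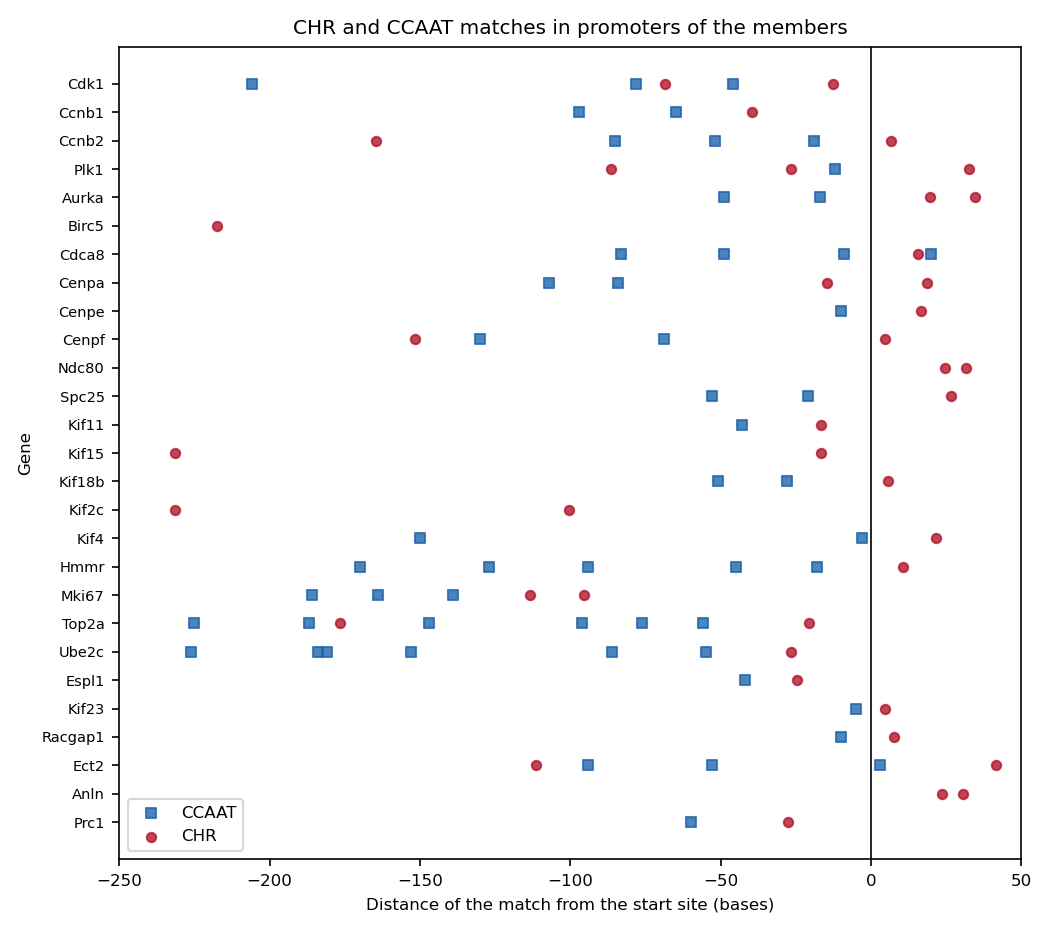
Distance in bases of CHR matches (red circles) and CCAAT matches (blue squares) from the start site (vertical line, at 0) in the promoters of the 27 members with a match, on both strands. Where a gene has more than 1 start site in the table, 1 is shown, and CHR matches cluster around the line with CCAAT matches mostly to the left of them.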

How the data were processed

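RNA-seq (paired-end) of 3 Dnmt3b+/- PTCL was analysed, with FPKM as the authors deposited them (linear, not pooled). The authors trimmed the reads, aligned them to mm10 with STAR and quantified alignments of high mapping quality over merged exons with SeqMonk.

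Members and gene lists were chosen with earlier results of these data known, and the erythroid and germinal centre B-cell lists each lack 1 gene first written for them. Named genes are, beside a few fixed by name, the highest by mean of each role group and list, and those with extreme ratios of tumor 1 to tumor 3 or extreme CV. Genes named as exceptions, pairs, overlaps or promoter examples were chosen after their values were seen.

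Where no read fell on a gene, its FPKM is that of 0.9 read, from which depth was taken. Reads were recovered with GENCODE M21 exon lengths, to within 0.05 read of a whole number for 93.4%, 93.5% and 93.6% of values. Incenp, Ndc80, Kif11, Dlgap5, Espl1 and Kif20a gave no whole reads. Intervals are exact conditional binomial intervals. Medians of ratios used log2(FPKM + 0.1), single genes plain FPKM. No count model was fitted, and with 1 group there are no p-values.

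Alternatives were other scalings (a common sum of 1000000, or median-of-ratios size factors), thresholds, pseudocounts and folds, the mean or sum over members, a filter at a mean of 1 FPKM, each tumor left out, a shorter promoter window and, chosen after seeing the data, centring on GC content and counting intervals under other scalings. The steps were tested on simulated tables. Software was Python 3.11.15 with NumPy 2.4.6, pandas 2.3.3, matplotlib 3.10.9 and SciPy 1.17.1.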

Additional observations from a re-analysis of the deposited data

How the results depend on the processing

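No sign of a median log2 ratio of the members changed under any alternative. Of 103 alternative values of the summary results 16 moved, counts by over 1.5 times and other values by more than a spread. For levels this spread was the SD of the tumors' medians. For ratios and CVs it was the SD over the members, which are not replicates. By that wide measure the fall from 0.88 to 0.40 for tumor 1 over tumor 2, centred on GC content, was not called moved. Counts that stayed at 0 were not called moved either. Rescaling FPKM to sum to 1000000 changed the unit, with medians of 41.4, 24.4 and 11.1 in tumors 1, 2 and 3 and a median of the members' means of 22.99. With this rescaling 15 members were 2-fold higher in tumor 2 than in tumor 3, against 19.9% of all genes. The means of all 39 members moved with the unit. The mean over the members, in place of the median, was 10.9, 6.74 and 3.92 FPKM. The count of members 2-fold higher in tumor 1 than in tumor 2 was 8 with size factors, against 14.5% of all genes. It was 8 with a pseudocount of 1, against 7.42%, and 2 centred on GC content, against 11.6%. At a fold of 3 the counts were 2 for tumor 1 over tumor 2, 17 for tumor 1 over tumor 3 and 1 for tumor 2 over tumor 3, against 7.91%, 9.46% and 8.79% of all genes, and at a fold of 1.5 the last was 22, against 25.5%, since the threshold itself moved. With each tumor left out in turn, the median CV ran from 33.7% to 67.1%, and the median of the members' means from 3.98 to 5.87 FPKM. In the last 150 bases before the start site the count of members was 13 for CHR and 11 for CHR with CCAAT, against 16.8% and 4.24% of genes, as matches past the start site or further upstream fall outside it. No paired analysis was possible because expression values exist for a single group. Depth limits the ratios of members with few reads, such as Spc25 and Ska1.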
